A study of Mus musculus with 6 samples.

Results

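Epithelial-mesenchymal transition (EMT) regulators were followed in epithelial sheets of the mouse forestomach, as 9 genes: Cdh1, Cdh2, Vim, Fn1, Snai1, Snai2, Zeb1, Zeb2 and Twist1. Their probes are those that carry one of these gene names in the scanner files, which gave 18 of the 41174 probes and 9 of the 27975 genes on the array. Of the 18 probes, 14 passed the filter, which asks for a Cy5 (sample) signal well above background on 3 or more of the 6 arrays, and each of the 9 genes kept at least 1. The rule uses the gene name and no measured value.

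The K5-CreER transgene of the control mice is a recombinase that tamoxifen activates, under the keratin 5 promoter of basal epithelial cells. Mutant mice carried K5-CreER;Rosa26Sox2/Sox2, that is, the same recombinase with Sox2 inserted at both Rosa26 alleles, so recombination is driven in cells that express keratin 5. Both groups were of a 129/Sv and C57/BL6 mixture, received 2 doses of tamoxifen at 7 weeks and were 12 weeks old per the labels. Each group has 3 arrays, called biological replicates in the labels. Every array carried the sample's RNA in Cy5 and the same commercial reference RNA, from 11 mouse cell lines, in Cy3. The question put by the design is how gene expression in the sheets differs when Sox2 is overexpressed.

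In EMT, epithelial cells loosen their adherens junctions and take up the cytoskeleton and matrix of mesenchymal cells. Cdh1 encodes E-cadherin, the adhesion protein of epithelial junctions, and Cdh2 encodes N-cadherin, its counterpart in mesenchymal and neural cells. Snai1, Snai2, Zeb1, Zeb2 and Twist1 are transcription factors, most of which act as repressors of Cdh1, and they are induced among other signals by TGF-beta. Vimentin (Vim), an intermediate filament, and fibronectin (Fn1), a matrix glycoprotein, are the usual mesenchymal readouts, but both are also made by fibroblasts and other stromal cells. Snai2 is also expressed by basal keratinocytes of stratified epithelia.

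Fn1 is shown in sequence because it is the member whose probes gave different sizes of difference, and its 3 probes are named for 1 transcript record. They are printed 5′ to 3′ as deposited, with the start in the transcript, and no base is marked because no part of a probe is singled out.
Fn1 probe at transcript position 7189: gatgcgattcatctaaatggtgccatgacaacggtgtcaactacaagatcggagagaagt
Fn1 probe at transcript position 6568: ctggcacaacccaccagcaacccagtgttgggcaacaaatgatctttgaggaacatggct
Fn1 probe at transcript position 2688: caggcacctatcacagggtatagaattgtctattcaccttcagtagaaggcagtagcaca

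All 3 Fn1 probes lie on the minus strand of chromosome 1 in build mm9, as the file headers name it. The probe at position 7189 spans chr1:71637422-71639659, a stretch of 2238 bases for a probe of 60, so it crosses at least 1 exon junction. The probe at position 6568 lies at chr1:71644127-71644186, and that at position 2688 spans chr1:71673888-71674646, 759 bases, and crosses a junction too. The 3 probes are 45%, 51.7% and 45% G and C.

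The arrays were not alike, and this touches every value below. Control 3 had 62.5% of probes well above background against 73.0% to 76.1% on the other 5 arrays, and its median sample signal was 4.66 times the background against 11.3 to 12.4 times. Over all tested genes, the scaled median absolute deviation between 2 arrays was 0.16 log2 units for controls 1 and 2 and 0.10 for mutants 2 and 3, and it ran from 0.33 to 0.73 for the other 13 pairs. If the arrays of a close pair share an RNA source, p-values that count them as 2 samples are too small. Controls 1 and 2 shared a slide, control 3 lay on another slide that was scanned on another day, and the mutants shared one more, so the effects of genotype and slide cannot be told apart. The difference of each member is therefore given with and without control 3, and leaving it out is also the comparison within a single scan day, the one day with arrays of both genotypes.

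The labels were checked against markers and the targeted locus. All 12 markers of squamous epithelium, the keratins Krt5, Krt14, Krt4 and Krt13 and the basal factor Trp63 among them, were on the array and detected, with a summed normalised sample signal of 2705000 to 4517000 on control and 2467000 to 2699000 on mutant arrays. The single Sox2 probe gave log2 ratios of 6.26, 6.09 and 6.38 on control arrays and 5.67, 5.83 and 5.95 on mutant arrays (difference -0.43, SE 0.14, limma, adjusted p = 0.143), but whether the transgene holds the stretch read by this probe is not given in the labels, so it does not check the transgene. Gt(ROSA)26Sor, which is transcribed from the Rosa26 locus, was lower on all 3 mutant arrays, with a log2 difference of -3.69 (SE 0.15, limma, adjusted p = 0.00116).

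None of the 9 genes passed the test between mutant and control arrays. Values are log2 ratios of sample over reference, fitted in limma over 20565 genes, and a gene passed at an adjusted p under 0.05. Over all genes 2.83% passed, 1.40% higher and 1.43% lower in mutants, and over the 30864 probes tested 2.72% passed, against 0 of the 14 member probes. At an unadjusted p under 0.05 stood 3 of the 9 members (Cdh1, Vim and Snai2), against 23.8% of all genes. Mutant and control values did not overlap for 4 of the 9 members, against 37.9% of all genes. Of these 4, Vim, Fn1 and Snai2 had all mutant values above all control values, as 19.7% of all genes did, and Cdh1 had all of them below, as 18.2% of all genes did. These shares are not far from those of the array as a whole. With 3 arrays against 3, the exact two-sided permutation test cannot give a p under 0.1, which is the value these 4 genes reached.

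**Figure D1:**
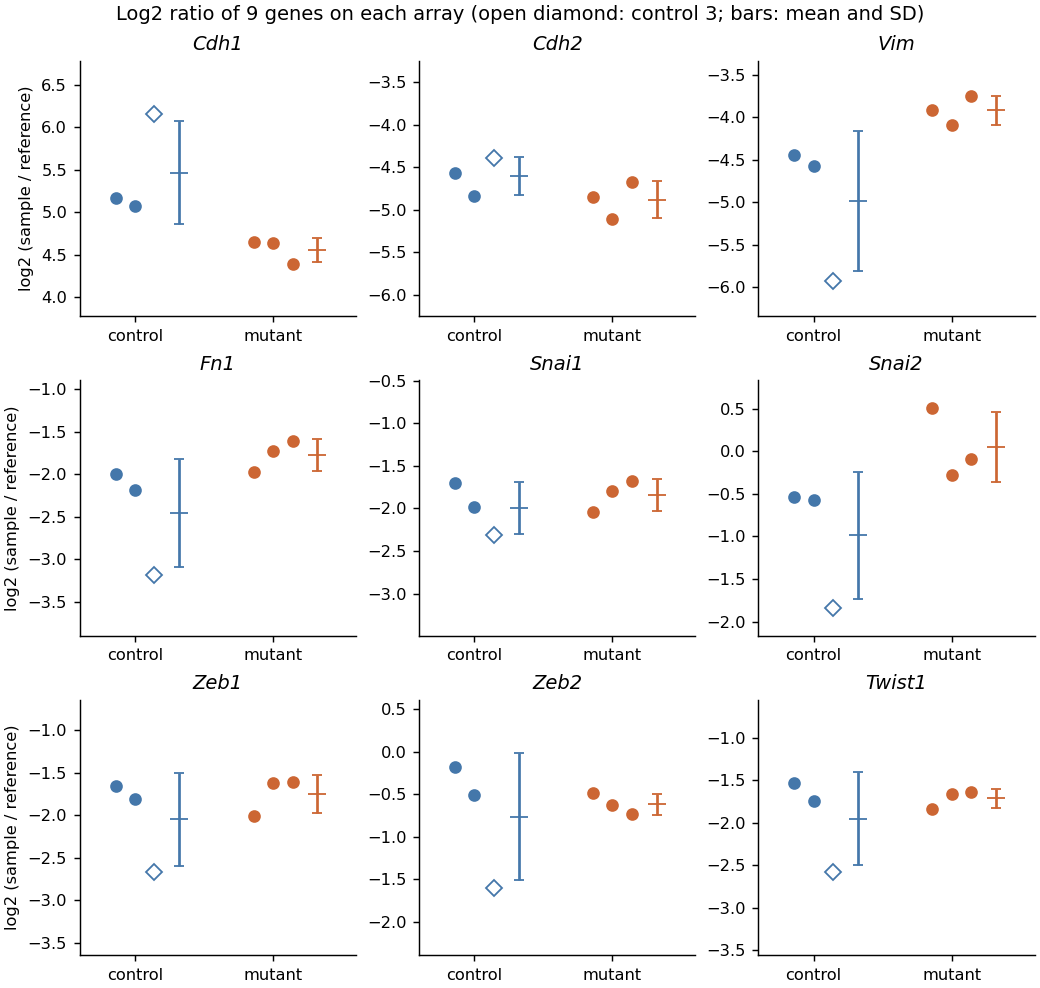
Log2 ratio of sample over reference (vertical axis, log2 units, each panel with its own limits of equal span) of the 9 genes on each control and mutant array, with control 3 as an open diamond and bars for the mean and SD of 3 arrays. Control 3 sits apart from controls 1 and 2 in most panels, and mutants do not overlap controls for Cdh1, Vim, Fn1 and Snai2.

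Control 3 itself set much of the spread. It was lower than both other controls for 7 of the 9 members, against 51.6% of all genes. Relative to the mean of controls 1 and 2 it differed by -1.42 log2 units for Vim, -1.29 for Snai2, -1.26 for Zeb2, -1.09 for Fn1, -0.94 for Zeb1, -0.94 for Twist1 and -0.47 for Snai1. The 2 cadherins went the other way, Cdh1 by 1.04 and Cdh2 by 0.32. The median over all genes was -0.08, and controls 1 and 2 differed from each other by 0.03 to 0.33 log2 units for the 9 members. Without control 3, 0 of the 9 members passed although 7.21% of all genes did, and 4 members were higher and 5 lower in mutants, where 7 were higher and 2 lower with all 6 arrays.

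E-cadherin was the member with the smallest p. Cdh1 had log2 ratios of 5.17, 5.07 and 6.16 on the control arrays and 4.65, 4.64 and 4.40 on the mutant arrays. All 3 mutant values lay below all control values, and control 3 was the highest array. The means were 5.47 ± 0.60 and 4.56 ± 0.14 (SD, n = 3 each), a difference of -0.91 log2 units (SE 0.30, 95% interval -1.63 to -0.18), or 1.87-fold lower, that did not pass (limma, adjusted p = 0.149). Without control 3 the difference was -0.56 (limma, adjusted p = 0.0555). The probe lies at chr8:109193812-109193871 (mm9, plus strand), starts at position 4078 of the transcript and is printed in 10 spots, whose ratios on an array had an SD of 0.03 to 0.11 log2 units. This is smaller than the gap between the group means, but not than every gap between single arrays, such as that of mutants 1 and 2.

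The 2 channels behind the Cdh1 ratio did not move alike. After normalisation within and between arrays, the log2 sample signal was 16.84, 16.88 and 17.44 on control and 17.02, 16.76 and 16.75 on mutant arrays, so that the groups overlapped. The log2 reference signal of the same probe was 11.67, 11.81 and 11.28 on control and 12.37, 12.12 and 12.35 on mutant arrays, with no overlap, although the labels give the same reference RNA for all 6. The mutant minus control difference was thus -0.21 for the sample's own signal and 0.69 for the reference. A fit with the sample channel alone, quantile-normalised without loess and so not on the values just given, gave -0.13 (limma, adjusted p = 0.672). The lower E-cadherin ratio thus stood largely in the reference signal.

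**Figure D2:**
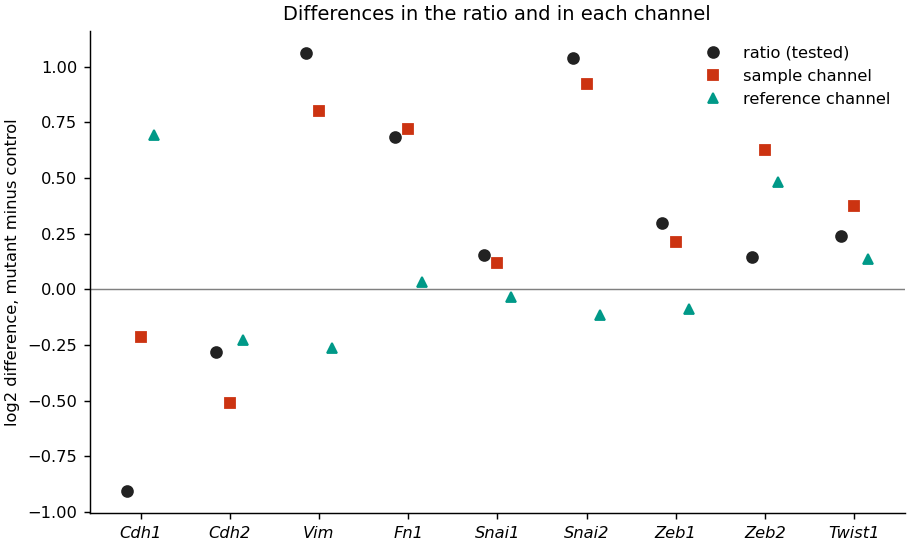
Mutant minus control difference (log2 units, means of 3 arrays each) in the tested ratio and in each of the 2 channels, for each of the 9 genes. For Cdh1 the reference channel differs by 0.69 and the sample channel by -0.21, whereas for Vim, Snai2 and Fn1 the sample channel holds most of the difference.

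N-cadherin was close to background. Cdh2 had log2 ratios of -4.57, -4.84 and -4.39 on control and -4.86, -5.12 and -4.68 on mutant arrays, and the groups overlapped. Its tested probe was well above background on 2 of 3 arrays in each group, with raw sample signals of 53.9 to 131 over all arrays, and the other 2 Cdh2 probes were above background on none. The difference of -0.28 (SE 0.18, 95% interval -0.71 to 0.14) did not pass (limma, adjusted p = 0.367), and it was -0.18 without control 3. With a signal this close to background the interval does not bound a rise of Cdh2. The difference was -0.0018 (SE 0.41) with the scanner software's processed signals and -0.07 (SE 0.39) in the authors' deposited table. The Cdh2 probes lie on chromosome 18.

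Vimentin had the largest positive difference in the ratio among the 9 genes, with Snai2 close behind. Vim stood at -4.44, -4.58 and -5.93 on the control arrays and at -3.91, -4.09 and -3.75 on the mutant arrays. Every mutant value lay above every control value, and control 3 was far below the other 2 controls. The difference was 1.06 log2 units (SE 0.40, 95% interval 0.10 to 2.02), from -4.98 ± 0.82 to -3.92 ± 0.17 (SD, n = 3 each), and did not pass (limma, adjusted p = 0.180). Leaving out control 3 brought it to 0.59 (limma, adjusted p = 0.0637). In the sample channel it was 0.80, with raw signals of 34670, 35001 and 5246 on control and 43146, 46833 and 63960 on mutant arrays. The probe lies at chr2:13504232-13504291 (mm9, plus strand), and a second Vim probe was well above background on no array.

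Fibronectin was measured by the 3 probes printed above, and they gave differences of unlike size. The brightest, at position 7189, stands for the gene: Fn1 had log2 ratios of -2.00, -2.18 and -3.19 on control and -1.98, -1.73 and -1.61 on mutant arrays. Mutants lay above controls, by as little as the gap between -2.00 on control 1 and -1.98 on mutant 1. Its difference was 0.69 (SE 0.32, 95% interval -0.09 to 1.46) and did not pass (limma, adjusted p = 0.252), and it was 0.32 without control 3 (limma, adjusted p = 0.211). The probe at position 6568 gave 0.17 (limma over probes, adjusted p = 0.622) and that at position 2688 gave 0.20 (adjusted p = 0.652), both with overlapping groups. The 3 probes differed most on control 3, where they read -3.19, -1.91 and -2.41, while on mutant 3 they read -1.61, -1.22 and -1.68.

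**Figure D3:**
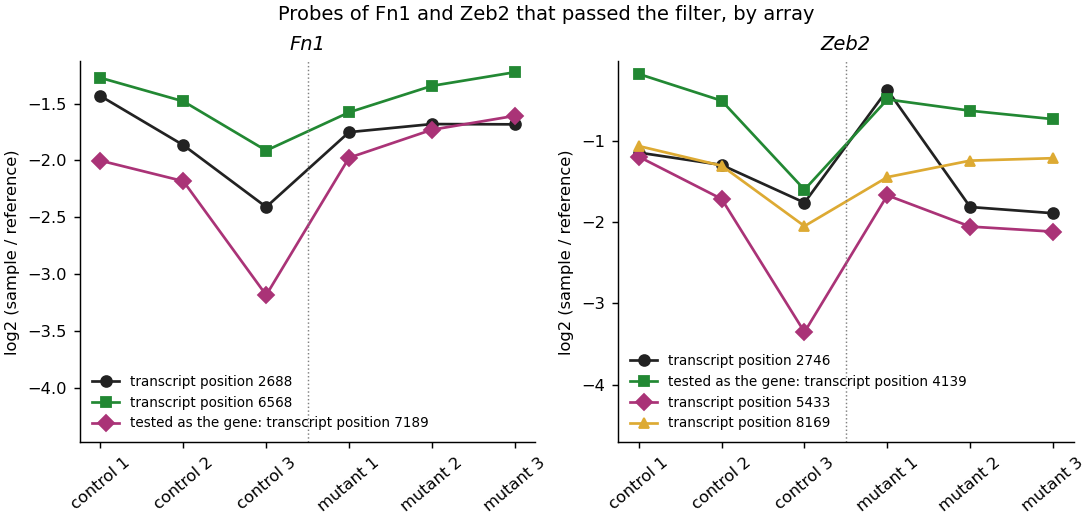
Log2 ratio of sample over reference (vertical axis) of each Fn1 probe (left) and each Zeb2 probe (right) that passed the filter, across the 6 arrays, with lines joining the values of 1 probe. The probe that stands for Fn1 drops to -3.19 on control 3, further than the other 2, and the Zeb2 probe at position 2746 reads -0.37 on mutant 1, its highest array.

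Snai1 and Snai2, the zinc-finger factors Snail and Slug, did not behave alike in size. Snai2 had log2 ratios of -0.54, -0.58 and -1.85 on control and 0.52, -0.28 and -0.08 on mutant arrays. The mutant values were all above the control values, with mutant 1 the highest and control 3 the lowest. The difference was 1.04 (SE 0.40, 95% interval 0.06 to 2.01), from -0.99 ± 0.74 to 0.05 ± 0.41 (SD, n = 3 each), and did not pass (limma, adjusted p = 0.190). It was 0.61 without control 3 (limma, adjusted p = 0.182) and 0.38 without control 3 and mutant 1. The difference in the sample channel was 0.92, and the probe lies at chr16:14709361-14709420 (mm9, plus strand).

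Snai1 stood at -1.69, -1.99 and -2.31 on control and -2.05, -1.79 and -1.68 on mutant arrays. The groups overlapped throughout, and the difference of 0.16 (SE 0.19, 95% interval -0.31 to 0.62; limma, adjusted p = 0.648) went to 0.00 without control 3 and to -0.01 when arrays were scaled to one spread. The probe lies at chr2:167368073-167368132 (mm9, plus strand). Whether the differences of Snai1 and Snai2 themselves differ was not tested.

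The zinc-finger homeobox factors Zeb1 and Zeb2 showed overlapping groups. Zeb1, whose probe is on chromosome 18, had log2 ratios of -1.65, -1.82 and -2.67 on control and -2.01, -1.63 and -1.62 on mutant arrays. Its difference was 0.30 (SE 0.29, 95% interval -0.40 to 1.00; limma, adjusted p = 0.557), and without control 3 the sign turned, to -0.01. In words, controls 1 and 2 lay within the range of the mutants, and control 3 was lowest.

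Zeb2 had log2 ratios of -0.18, -0.51 and -1.60 on control and -0.49, -0.63 and -0.73 on mutant arrays. Control 3 was the lowest array and control 1 the highest, with all mutants between them. The difference was 0.14 (SE 0.36, 95% interval -0.73 to 1.02; limma, adjusted p = 0.831) and turned to -0.28 without control 3 (limma, adjusted p = 0.260). The probe, at chr2:44844068-44844127 (mm9, minus strand), had a raw reference signal of 960 on control 3 against 5187 to 5749 on the other arrays.

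Zeb2 has 3 further probes that passed the filter, and none passed the test. The probes at transcript positions 8169 and 5433 gave 0.17 and 0.14 (limma over probes, adjusted p = 0.718 and 0.893). A probe named for another Zeb2 transcript record, at position 2746, gave 0.04 (adjusted p = 0.963), but it read -0.37 on mutant 1 against -1.81 and -1.89 on mutants 2 and 3. The fifth probe, well above background on 2 arrays and not tested, read -0.79 on mutant 1 against -1.68 and -1.59 on mutants 2 and 3. Mutant 1 was thus set apart on these 2 probes, both named for transcript records other than that of the tested probe, and less so on the other 3.

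Twist1, a basic helix-loop-helix factor of mesenchyme, had log2 ratios of -1.54, -1.75 and -2.58 on control and -1.84, -1.66 and -1.64 on mutant arrays. Mutant 1 was below controls 1 and 2, mutants 2 and 3 lay between them, and control 3 was lowest. The difference of 0.24 (SE 0.28, 95% interval -0.43 to 0.91; limma, adjusted p = 0.627) turned to -0.07 without control 3. The probe lies at chr12:34644411-34644470 (mm9, plus strand). The intervals of the 5 transcription factors reach from -0.73 to 2.01 in all, so the p-values do not show equal levels.

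**Figure D4:**
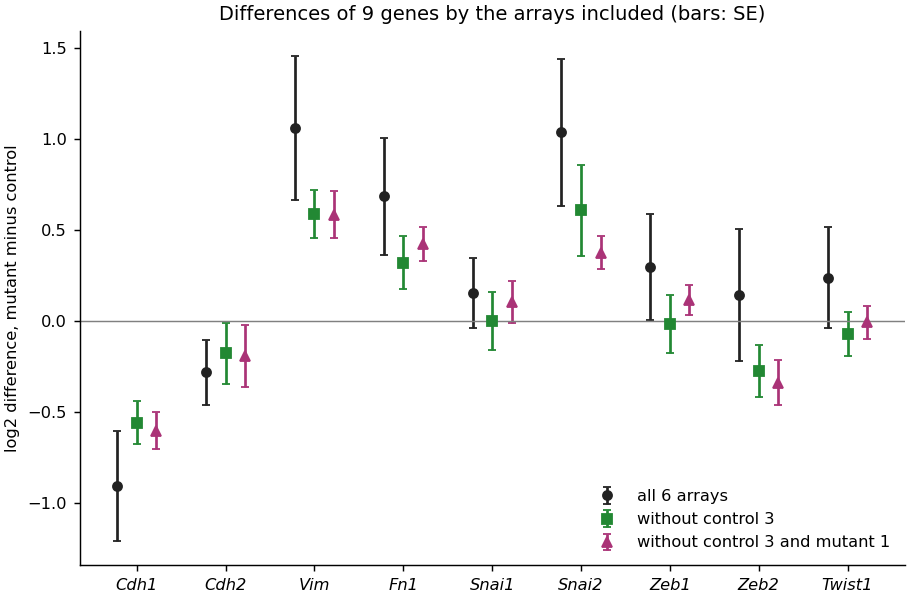
Mutant minus control difference (log2 units, bars for the SE) of the 9 genes with all 6 arrays, without control 3, and without control 3 and mutant 1. Cdh1 stays below 0 and Vim, Fn1 and Snai2 above 0 in the 3 fits, nearer to 0 without control 3, and Zeb1, Zeb2 and Twist1 change sign between fits.

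One further fit left out control 3 and mutant 1, the arrays with no close partner in their group, and was chosen after the data were seen. In it 4 of the 9 members passed: Cdh1 at -0.60 (limma, adjusted p = 0.00998), Vim at 0.59 (0.0215), Fn1 at 0.42 (0.0211) and Snai2 at 0.38 (0.0260). The same fit called 37.6% of all genes, and it sets 1 close pair of arrays against the other, so its p-values hold only if the arrays of a pair are separate samples. Over the 19 alternatives run, this fit included, the adjusted p ranged from 0.00998 to 0.856 for Cdh1, from 0.0215 to 0.783 for Vim, from 0.0211 to 0.759 for Fn1 and from 0.0260 to 0.656 for Snai2, and no other alternative brought a member past the threshold. Averaging each close pair into 1 sample instead left 0 members and 0 genes past the threshold in limma, with 2 members and 2196 genes at an unadjusted p under 0.05.

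The partners of E-cadherin did not pass either. Of 14 catenins, nectins and other junction genes tested, 0 passed in either direction in limma (3 at an unadjusted p under 0.05, against 23.8% of all genes). Of the 14, 6 were positive, and the median was -0.14 against 0.01 for all genes. Those with the smallest p were Nectin1 (-0.40, limma, adjusted p = 0.129), Nectin2 (-0.55, 0.183), the actin-linking vinculin Vcl (0.35, 0.206) and Cdh3, which encodes the P-cadherin of basal cells (0.86, 0.213). Without control 3 the list's median was -0.02, with 7 of 14 positive. In 3 of the 14 genes all mutant values were above all control values, and in 3 all were below. These counts are not far from the shares of all genes, 19.7% and 18.2%. Vcl and Cdh3 were among those above, and Nectin1 and Nectin2, adhesion proteins of the same junctions, among those below.

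Among genes that maintain epithelial identity none passed in limma, with 9 of 19 at an unadjusted p under 0.05, against 23.8% of all genes. Of the 19, 6 were positive, the median was -0.46, and 12 had all mutant values below all control values, as 18.2% of all genes did. The median was -0.25 without control 3, where Epcam, an epithelial surface glycoprotein, was the single gene called, higher in mutants. Klf4, a factor of squamous differentiation, had the smallest p (-0.75, limma, adjusted p = 0.110). It was followed by the protease inhibitor Spint1 (-0.69, 0.126), and the polarity protein Crb3 stood at -0.62 (0.157). On the same arrays the 12 squamous markers had a median of -0.72, with 1 positive and 0 called in limma (4 at an unadjusted p under 0.05, against 23.8% of all genes). With the sample channel alone the median was -0.22 for the epithelial identity list, with 6 of 19 positive and 0 called. For the squamous markers it was -0.09, with 5 of 12 positive. In that fit 1 squamous marker was called higher and 1 lower, where 1.52% of all genes were called. The part of the squamous markers and that of the reference signal in these values were not tested.

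Among 15 tested of 16 other transcription factors linked to EMT, 1 fell and 0 rose, where 1.43% of all genes fell and 1.40% rose. Snai3, a relative of Snai1 and Snai2, was not well above background on enough arrays to be tested. Gsc, the homeobox factor goosecoid, stood at 0.76, 0.64 and 0.88 on control and -0.13, -0.21 and 0.05 on mutant arrays, all mutants below all controls. It fell by 0.86 log2 units (SE 0.13, limma, adjusted p = 0.0316) with its single probe. The call did not hold with the scanner software's processed signals (-1.72, adjusted p = 0.0613) or without control 1, control 2 or any one of the mutants (0.0574 to 0.153), and over all 19 alternatives its adjusted p ran from 0.00570 to 0.457. The other 3 with the smallest p did not pass: Sox4 at 0.36 (0.159), the chromatin protein Hmga2 at 0.73 (0.174) and Sox9 at -1.07 (0.178). The list's median was 0.22, and 0.07 without control 3, where Gsc stood at -0.80 (limma, adjusted p = 0.0291).

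TGF-beta ligands, receptors and mediators had positive differences for 13 of 13 genes, with a median of 0.55 and 0 past the threshold in limma (5 at an unadjusted p under 0.05, against 23.8% of all genes). Tgfbr2, the type II receptor, had the smallest p, at 0.96 (limma, adjusted p = 0.0651), and Smad2, a receptor-activated mediator, followed at 0.55 (0.0896). Smad4, the common mediator, stood at 0.61 (0.127) and the corepressor Tgif1 at 0.56 (0.148). In 9 of the 13 genes all mutant values were above all control values, as in 19.7% of all genes. Of the 13, 12 were lower on control 3 than on the mean of controls 1 and 2. Without control 3 the median was 0.23 with 10 of 13 positive, and Tgfbr2 was called.

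Mesenchymal effectors beyond Vim and Fn1 gave 1 rise among 22 genes tested, where 1.40% of all genes rose. Cdh11, which encodes the cadherin-11 of mesenchymal cells, stood at -0.52, -0.34 and -0.83 on control and 0.57, 0.53 and 0.54 on mutant arrays. The mutants were close together and above all controls, and the gene rose by 1.11 log2 units (SE 0.15, limma, adjusted p = 0.0246). Its other 2 probes gave 0.61 and 0.53 (limma over probes, adjusted p = 0.184 and 0.290), and the mean of its probes gave 0.75 (adjusted p = 0.111). These 2 probes stood at a much lower level than the tested probe. Their means were -4.63 and -4.19 on control and -4.02 and -3.67 on mutant arrays, against -0.56 and 0.55 for the tested probe. Whether they read the same transcript as the tested probe was not tested. Without control 3 the difference of the tested probe was 0.98 (adjusted p = 0.0146). The call also did not hold without control 1, control 2, mutant 2 or mutant 3 (0.0774 to 0.129), and over all 19 alternatives its adjusted p ran from 0.00160 to 0.445.

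In the same list Tpm2, a tropomyosin of the contractile apparatus, stood at -0.61 (limma, adjusted p = 0.0931), the calcium-binding S100a4 at 1.21 (0.126) and the matrix protease Mmp9 at 1.05 (0.165). Mmp9 read -0.83 on mutant 1 against -2.17 on each of mutants 2 and 3, with -2.82 to -2.69 on control arrays. The list's median was 0.42 with 17 of 22 positive, and 0.06 with 12 of 22 without control 3, where Cdh11 was called higher and Postn, which encodes the matrix protein periostin, lower. The stromelysin Mmp3, named after its values were seen as the point farthest to the right, was at -5.71, -5.85 and -6.08 on control and 0.12, -4.42 and -4.27 on mutant arrays. Mutant 1 stood far above the rest, and the difference of 3.02 did not pass (limma, adjusted p = 0.194).

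**Figure D5:**
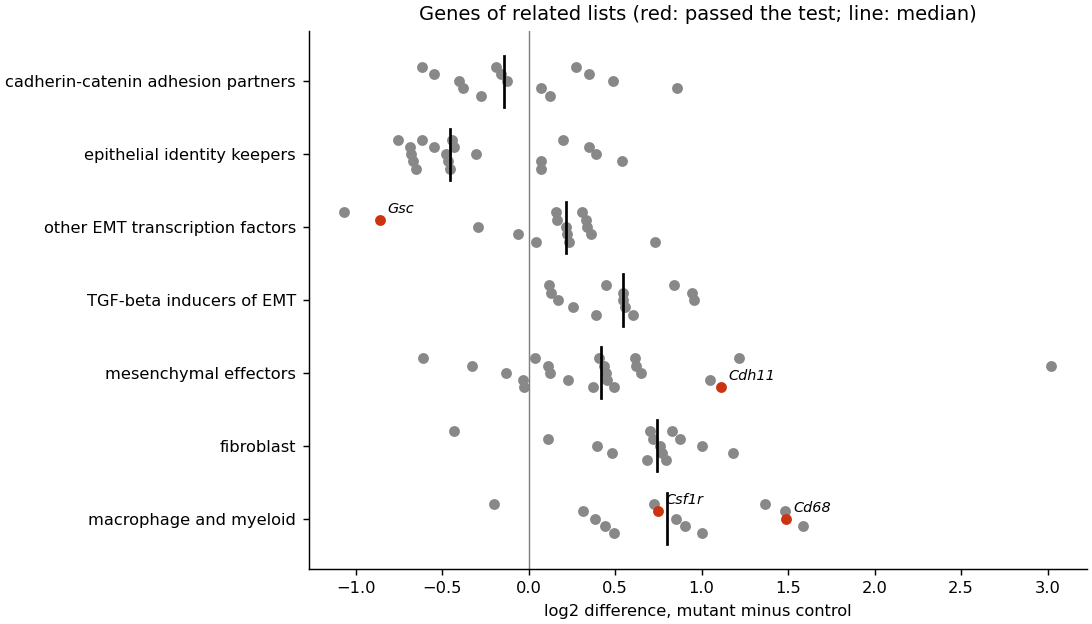
Mutant minus control difference (horizontal axis, log2 units) of each gene tested in 5 lists related to EMT and in the fibroblast and the macrophage and myeloid lists, with red for genes that passed and a vertical line for the median. All TGF-beta genes lie to the right of 0, most epithelial identity genes to the left, and Gsc, Cdh11, Cd68 and Csf1r are the genes that passed.

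Markers of other cell types are set beside these values, and their lists did not all go the same way. In bulk sheets, fewer cells of a type and less RNA per cell cannot be told apart. Of 14 fibroblast markers, 13 were positive and 0 passed in limma, also at an unadjusted p under 0.05, the median being 0.74 (0.17 without control 3), and all 14 were lower on control 3, by a median of -1.54. Their summed normalised sample signal ran from 88260 to 348900 on control and from 347400 to 365900 on mutant arrays, and all 14 were detected. This is beside Vim, Fn1 and the mesenchymal effectors, and the part of fibroblasts in those values was not tested.

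Macrophage and myeloid markers were positive in 13 of 14 genes, with a median of 0.80, or 0.70 without control 3, and 2 passed, against 2.83% of all genes. At an unadjusted p under 0.05 in limma stood 8 of the 14, against 23.8% of all genes. All mutant values were above all control values for 11 and below for 1, against 19.7% and 18.2% of all genes. Cd68, a lysosomal protein of macrophages, rose by 1.49 log2 units (limma, adjusted p = 0.0166), and the receptor Csf1r rose by 0.75 (0.0488). Neither call held with arrays scaled to one spread, with slide or replicate number as a block, with close arrays averaged, or without control 1, control 2, mutant 2 or mutant 3. That of Csf1r was also lost with processed signals, median centring, the sample channel alone, the authors' deposited table, the mean of probes and without mutant 1. The summed signal of the list was 41230 to 95230 on control and 124900 to 176300 on mutant arrays, with no overlap and with all 14 markers detected. Macrophages also make vimentin, and their part in the Vim value was not tested.

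The remaining lists held 0 genes that passed in limma, and 1, a lymphocyte marker, at an unadjusted p under 0.05. Medians were -0.15 for 8 smooth muscle, 0.26 for 10 endothelial, 0.40 for 9 lymphocyte, 0.05 for 7 Schwann and neural, 0.15 for 3 melanocyte and 0.46 for 15 glandular stomach markers. Without control 3 the smooth muscle median was -0.92, with 0 of 8 genes positive, the lymphocyte median 0.24 and the melanocyte median 0.03. The sign of 3 of these medians turned, to -0.45 for the glandular stomach, -0.09 for endothelium and -0.08 for the Schwann and neural list. The smooth muscle median also depended on mutant 1. It was 0.39 with 7 of 8 genes positive without mutant 1, and -0.33 with 2 of 8 positive without control 3 and mutant 1. Cd79a and the melanocyte genes Mlana, Tyr and Tyrp1 were well above background on no array. On control 3 all 8 smooth muscle, all 10 endothelial and all 15 glandular stomach markers were lower than the mean of controls 1 and 2, by medians of -2.34, -1.30 and -2.99. Control 3 thus held less signal of several non-squamous tissues together with its lower Vim, Snai2, Zeb2 and Fn1, and the part of these tissues in the member values was not tested. The summed glandular signal ran from 97770 to 1904000 on control and from 564200 to 1631000 on mutant arrays.

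The genes most like Cdh1 and Vim were found by the root mean square difference of centred log2 ratios over the 6 arrays. For Cdh1 they were Sdr42e1 (0.02 log2 units), Them5, Hopx, Slc10a6 and Pinlyp (0.06 to 0.07), with mutant minus control differences of -0.92 to -0.79. For Vim they were Il1rl1 (0.06), Cdca3, Pimreg, Flvcr1 and Oscp1 (0.08 to 0.10), with differences of 0.97 to 1.10. None of these 10 genes passed in limma, and the likeness rests on 6 arrays of which control 3 is the one farthest from the rest. As the genes were picked by these same values, their similar differences follow from the choice and are no further evidence.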

How the data were processed

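RNA of forestomach epithelial sheets (3 control, 3 mutant arrays) was hybridised in Cy5 against a reference RNA in Cy3, per the labels, with no dye swap. Spot intensity values are deposited in the scanner software's own output, from Agilent Feature Extraction 10.5.1.1 (10.7.3.1 for control 3) per the file headers and 9.1 per the submitters' processing notes. The authors' deposited table of log2 ratios entered as an alternative. Its columns ran with slopes of 0.978 to 1.17 against the scanner values and medians of 0.026 to 0.060, so scale and direction match, while centring and normalization are not given in the sources used here. Its mutant 1 column correlated best with scanner values of mutant 3 (r = 0.973, own file 0.886) and its mutant 3 column with those of mutant 1 (0.969, own file 0.881); mutant numbers here follow the scanner files.

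Mean signals and median backgrounds were corrected with normexp (offset 50) and loess within arrays in limma 3.58.1 under R 4.3.3, with control spots and spots marked as outliers at weight 0, and the spots of a probe were averaged. A probe entered if its Cy5 signal was well above background on 3 or more of 6 arrays, and a gene was its probe with the highest mean sample signal. Single-channel values were also quantile-normalised on mean intensity (Aquantile) after loess. The fit with the sample channel alone used other values, the background-corrected Cy5 signals quantile-normalised between arrays without loess. Of 41174 probes, 32699 were named through the RefSeq table of assembly GRCm38.p6 and others kept their names from the files; 7061 genes had several probes. Groups were compared with lmFit and eBayes, Benjamini-Hochberg adjustment over all genes, two-sided, 4 residual degrees of freedom, so that array number limits precision. Pooling of RNA is not stated, and p-values reflect only how these arrays vary, which may be partly technical. The fit was tested on simulated data with independent noise on every array. That setting lacks the close pairs of the real arrays, so it does not check the p-values under such likeness. Columns of per-sample values that were not used number 0.

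Same-numbered arrays had correlations of their deviations of 0.00, 0.02 and 0.13 across groups, so the numbers were not taken as pairs. Named genes were all 9 members, of each related list the 4 tested genes with the smallest p, and the 5 genes most like Cdh1 and like Vim; 1 gene that the rule names is not reported here. The members, lists and alternatives were chosen with earlier results of these data known, so the lists are no independent evidence.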

Additional observations from a re-analysis of the deposited data

How the results depend on the processing

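The 9 members were refitted under 19 alternatives, and 0 passed under 18 of them. The exception, without control 3 and mutant 1 and chosen after the data were seen, called 4 members, 6 member probes and 7725 genes. Scan day as a block and leaving out control 3 gave the same fit, because control 3 was the only array of its day. The tallies of alternatives count it under both names. Cdh1, Cdh2, Vim, Fn1 and Snai2 kept their direction wherever they had a value; Cdh2 had none when all 6 arrays had to be well above background. Directions turned for Snai1 with arrays scaled to one spread (-0.012) and, with scan day as a block or without control 3, for Zeb1 (-0.015), Zeb2 (-0.28) and Twist1 (-0.073); without control 3 and mutant 1 Zeb2 was at -0.34 and Twist1 at -0.0074. With 1 array left out at a time they ran up to 0.495 (Zeb1), 0.436 (Zeb2) and 0.448 (Twist1). The 581 genes called in all became 325 with the scanner software's processed signals, 268 with median centring, 8 with scaled arrays, 312 with the sample channel alone, 4 with slide as a random block, 1483 with scan day as a block, and 34 to 1483 when 1 array was left out. With the replicate number as a block, a pairing the arrays did not bear out, 137 genes and 0 members were called, and Gsc (adjusted p = 0.0838) and Cdh11 (0.0724) were lost. With near-identical arrays averaged, limma called 0 genes, 2196 at an unadjusted p under 0.05. The cause of these changes was not tested, and the fits that leave arrays out also rest on fewer arrays. Gsc stayed past the threshold under 7 alternatives and Cdh11 under 9, each with its direction kept under all 19; Gsc was at -1.33 in the authors' deposited table. The median difference of all genes was at most 0.063 in size under every setting run. Signal over background limits control 3 most, and also Cdh2, whose tested probe was well above background on 4 of the 6 arrays.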
